A study of Gossypium hirsutum with 6 samples.

Results

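Upland cotton (Gossypium hirsutum) carries a family of genes for flowering-promoting factor 1 (FPF1), and 7 of the 12 genes so described had any transcript in the leaf. They were taken from a table of 72761 genes as the rows whose protein description names flowering-promoting factor 1 and whose level was above the lowest listed value in at least 1 of 6 libraries. The members were thus selected on their own FPKM in all libraries, with no regard to group. FPF1 transgenic leaf (3 libraries, labelled transgenic lines) was set against wild-type leaf (3 libraries, titled W10). The series describes FPF1 as a factor of shade avoidance in cotton, studied with edited and constitutively expressing plants and together with its partner NF-YA3, a subunit of the NF-Y transcription factors. The labels give no promoter, line number, plant age, planting density or light for these leaves, and they do not say which cotton gene identifier the study calls FPF1.

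FPF1 proteins are small and specific to plants. In Arabidopsis, FPF1 is expressed in the shoot apex when flowering is induced, its constitutive expression hastens flowering, and its action has been tied to gibberellin. In rice, a relative called RAA1 is known for its part in root development. Cotton is an allotetraploid with an A and a D subgenome, so most genes have a counterpart on the chromosome of the same number in the other subgenome.

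Levels are given in FPKM, fragments scaled by transcript length and by library size, which allows genes to be compared per length. The libraries had 52037 to 53560 genes above 0. Relative depth, read from the smallest values, was 0.990 to 1.14 in the transgenic libraries and 1.19 to 1.29 in the wild-type libraries, with FPF1 transgenic 1 set to 1. The number of reads is unknown, and a listed 0 may be a failed estimate, so members with zeros are given library by library. Whether replicates were separate plants is not stated, so p-values reflect only how far these samples spread, and that spread may be technical. In bulk leaf, fewer cells with a transcript and less transcript per cell cannot be told apart.

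The member with the highest level and the largest difference was GH_D02G0524 (chromosome D02), which carries the description FPF1-like. Its level was 133, 199 and 195 FPKM in FPF1 transgenic leaf, against 0, 0 and 0.467 FPKM in wild-type leaf. The groups did not overlap, and the lowest transgenic library stood 284-fold above the highest wild-type library. In transgenic leaf the gene ranked 770, 410 and 392 among all genes by level, within the top 1.46%, 0.777% and 0.732% of genes above 0. In wild-type library 3, the only wild-type library with a value, 86.6% of the genes above 0 were at its level or higher.

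The rule for members reads the same libraries, so the fit across all genes is given for GH_D02G0524 as a description of size and spread. The fit was made with limma on log2(FPKM + 1) over the 43837 genes that reached a group mean of 1 FPKM. GH_D02G0524 reached that mean only in transgenic leaf, at 175 FPKM, against 0.156 FPKM in wild-type leaf. For GH_D02G0524 the fit gave a log2 fold change of 7.25 (standard error 0.214, adjusted p = 3.71e-05). Of all tested genes 5.70% were called at an adjusted p under 0.05, 3.92% as higher and 1.78% as lower in transgenic leaf. Those were 1720 higher and 780 lower genes, or 1269 and 981 after median-of-ratios scaling and 1295 and 967 after upper quartile scaling. Its log2 fold change ranked 2 and its p ranked 3 among the tested genes. In the authors' deposited table GH_D02G0524 had a log2 fold of 10.1, as a ratio of group means, and ranked 2 by p among all genes (q = 7.43e-136). The wild-type mean in that ratio rests on wild type 3, the only wild-type library with a value.

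The level of GH_D02G0524 varied among the transgenic libraries, with the highest at 1.5 times the lowest. On the log2(FPKM + 1) scale its SD was 0.327 in transgenic leaf (n = 3). Among 1243 tested genes within 2-fold of its transgenic mean the median SD was 0.140, and 88.1% of them varied less. FPF1 transgenic 1 was the low library, and the other two were close to each other.

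**Figure D1:**
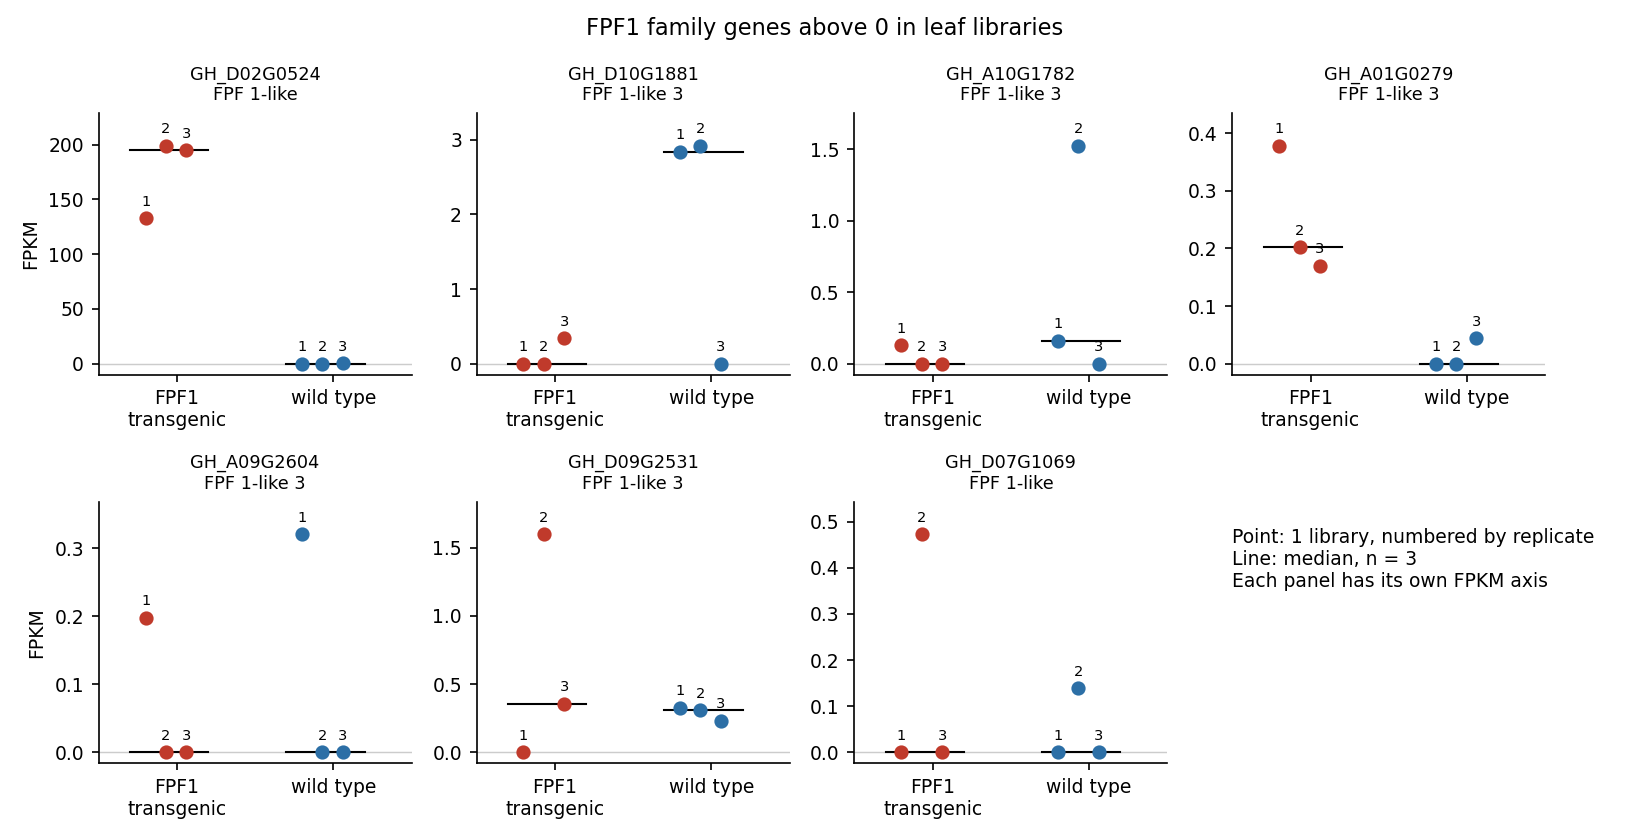
FPKM (vertical axis, a scale of its own in each panel) of the 7 FPF1 family genes in FPF1 transgenic and wild-type leaf, with 1 numbered point per library and a line at the median. GH_D02G0524 is at 133 to 199 FPKM in transgenic leaf and at most 0.467 in the wild type, while no other member exceeds 2.92 FPKM in any library.

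**Figure D2:**
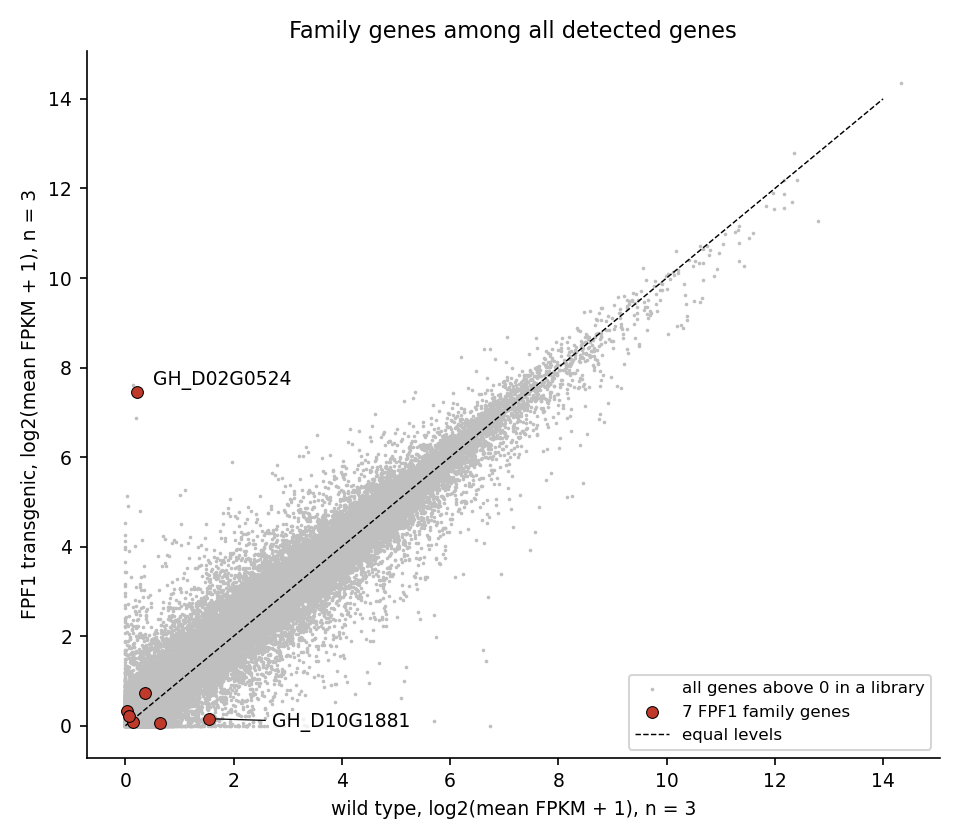
Mean level of each gene above 0 in a library, as log2(mean FPKM + 1), in FPF1 transgenic leaf (vertical) and wild-type leaf (horizontal), with the 7 family genes in red and a dashed line of equal levels. GH_D02G0524 lies far above the line at the left edge, and the other 6 members lie near the origin.

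The other 6 members were weak or near absent. Of the 42 member values, 23 were above 0 and 7 were above 1 FPKM, and 3 of those 7 belonged to GH_D02G0524 in transgenic leaf. None of the 7 genes was above 0 in every library. Just inside the rule for members lay GH_A09G2604, whose highest value was 0.321 FPKM, and just outside it lay 5 family genes at 0 in all 6 libraries. Summed over the family without GH_D02G0524, FPF1 transcript was 0.705, 2.27 and 0.868 FPKM in transgenic leaf and 3.64, 4.89 and 0.274 FPKM in wild-type leaf. These sums overlapped, with wild type 3 the lowest of all. GH_D02G0524 made up 98.9% to 99.6% of the family's FPKM in the transgenic libraries.

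GH_D10G1881, FPF1-like protein 3 on chromosome D10, was the strongest member in wild-type leaf. It stood at 0, 0 and 0.341 FPKM in transgenic leaf, against 2.84, 2.92 and 0 FPKM in wild-type leaf. Wild type 1 and 2 were above every other library, and wild type 3 was among the zeros, so the groups overlapped. The gene entered the fit only through its wild-type mean of 1.92 FPKM, against 0.114 FPKM in transgenic leaf, so the fit is given as a description. The fit across all genes gave -1.16 on the log2 scale (standard error 0.526, adjusted p = 0.231, limma), and the gene was not called. Without wild type 3 it was called lower (log2 -1.81, adjusted p = 0.0159). That fit leaves out the only wild-type library at 0, so the call carries no support for a fall. Over the 14 alternatives its adjusted p was 0.0159 to 0.503. The authors' deposited table marks it as significantly lower with a log2 fold of -4.08 (q = 0.0448), where 5.12% of all rows are marked significant and 1.93% as lower. That mark went to rows with a deposited p under 0.05 and at least a 2-fold change.

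The family gene on chromosome A10, GH_A10G1782, also described as FPF1-like protein 3, was paired with it by chromosome number. It stood at 0.129, 0 and 0 FPKM in transgenic leaf, against 0.162, 1.52 and 0 FPKM in wild-type leaf. Wild type 2 held the highest value for both genes of this pair, and both were at 0 in wild type 3. Wild type 1 separated them, with the D10 gene at 2.84 FPKM and the A10 gene at 0.162 FPKM. The groups overlapped for the A10 gene. Its mean log2(FPKM + 1) was lower in transgenic leaf by a difference of -0.46, which was smaller than the SD of 0.717 within the wild type.

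GH_A01G0279, FPF1-like protein 3 on chromosome A01, was the only other member whose groups did not overlap. It stood at 0.378, 0.202 and 0.170 FPKM in transgenic leaf, against 0, 0 and 0.0445 FPKM in wild-type leaf. All of these levels are low, and the difference in mean log2(FPKM + 1) was 0.30. That value hangs on the pseudocount, with 1.58 at a pseudocount of 0.1 and 3.80 at 0.01. The gene was under the mean of 1 FPKM needed for testing. When all 58258 detected genes were tested, of which 2.88% were called, its adjusted p was 0.119 by limma. Of the 14421 detected genes under that mean, 7.77% were higher in transgenic leaf without overlap and 11.2% did not overlap in either direction. With 3 against 3 libraries an exact permutation test of a single gene cannot go below 0.1. Over all 7 members, 2 were higher in transgenic leaf without overlap and 5 overlapped, where 25.5% of all detected genes did not overlap. Its counterpart on chromosome D01, GH_D01G0265, was at 0 in all 6 libraries.

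The pair on chromosomes A09 and D09, both described as FPF1-like protein 3, showed no separation of the groups. GH_D09G2531 stood at 0, 1.60 and 0.357 FPKM in transgenic leaf, against 0.327, 0.308 and 0.230 FPKM in wild-type leaf. It was the only member above 0 in all 3 wild-type libraries, and the transgenic libraries held both its highest value and its only 0. GH_A09G2604 stood at 0.198, 0 and 0 FPKM in transgenic leaf, against 0.321, 0 and 0 FPKM in wild-type leaf. GH_D07G1069, an FPF1-like gene on chromosome D07, stood at 0, 0.473 and 0 FPKM in transgenic leaf, against 0, 0.138 and 0 FPKM in wild-type leaf. For each of the last 2 genes a single library per group was above 0, and for all 3 the adjusted p was 0.718 to 0.878 (limma, all detected genes tested). These p-values do not show that the levels were equal.

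By their highest library, the order in transgenic leaf was GH_D02G0524, GH_D09G2531, GH_D07G1069, GH_A01G0279, GH_D10G1881, GH_A09G2604 and GH_A10G1782. There, GH_D02G0524 was separate from all others and the remaining neighbours in the order overlapped. In wild-type leaf the order was GH_D10G1881, GH_A10G1782, GH_D02G0524, GH_D09G2531, GH_A09G2604, GH_D07G1069 and GH_A01G0279. Each neighbouring pair overlapped there, since all members but GH_D09G2531 had at least 1 wild-type library at 0.

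Of the 12 family genes, 10 form 5 pairs on chromosomes of the same number in the A and D subgenomes. Both genes were above 0 in 2 pairs, on chromosomes 9 and 10, and 1 gene in the pair on chromosome 1. Both were at 0 in the pairs on chromosomes 5 (GH_A05G0665 and GH_D05G0665, FPF1-like) and 6 (GH_A06G1306 and GH_D06G1188, FPF1-like protein 2). The genes beside each pair shared 1 to 5 protein descriptions within 3 identifiers on either side. On chromosome 1 these were NIP7 of ribosome biogenesis, a cullin-1-like scaffold of ubiquitin ligases, the SUMO protease ESD4 and a vesicle-associated membrane protein of the fusion machinery. On chromosome 10 the single shared description was a probable protein phosphatase 2C 40, which also lay beside both chromosome 9 genes. Pairs were set by chromosome number, and no sequences were compared. GH_D02G0524 and GH_D07G1069 had no partner with an FPF1 description.

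On chromosome A02, the 11 identifiers GH_A02G0502 to GH_A02G0512 share 5 descriptions with the stretch around GH_D02G0524, from a sucrose nonfermenting 4-like gene to a translationally controlled tumor protein gene. None of the 11 is described as FPF1, and some of them were too low to be tested. One of them was called, GH_A02G0504, cullin-1-like, at 6.52, 6.69 and 8.34 FPKM in transgenic leaf, against 3.18, 4.21 and 2.03 FPKM in wild-type leaf (log2 1.01, adjusted p = 0.0432, limma). Of all tested genes 5.70% were called. Over the libraries left out the adjusted p of GH_A02G0504 was 0.0243 to 0.141, and the call was held only without wild type 2. Of the other alternatives given at the end, the call was lost with no filter (limma adjusted p = 0.0647) and a pseudocount of 0.01 (0.0526). It was also lost with median-of-ratios scaling (0.0502) and the replicate block (0.0833), and held in the rest. In this stretch GH_A02G0507, a hypothetical protein, was at 0 in all 6 libraries, as was its like-placed counterpart GH_D02G0523. GH_A02G0508, also hypothetical, stood at 1.29, 3.22 and 2.62 FPKM in transgenic leaf, against 5.13, 3.11 and 2.79 FPKM in wild-type leaf. Whether the A02 stretch holds an FPF1 gene under another description was not tested.

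None of the 3 tested neighbours of GH_D02G0524 was called. The identifier just before it, GH_D02G0523, was at 0 in every library. The one just after it, GH_D02G0525 for a RALF-like 33 signalling peptide, stood at 0.886, 0.538 and 0.905 FPKM in transgenic leaf, against 3.45, 0.548 and 2.14 FPKM in wild-type leaf (log2 -0.66, adjusted p = 0.332, limma). GH_D02G0522, an uncharacterized protein, had 15.9, 14.5 and 11.8 FPKM in transgenic leaf and 11.5, 13.3 and 10.5 FPKM in wild-type leaf (log2 0.24, adjusted p = 0.357). GH_D02G0521, cullin-1-like, was at 1.36, 1.34 and 1.22 FPKM in transgenic leaf, against 0.790, 1.27 and 0.142 FPKM in wild-type leaf (log2 0.47, adjusted p = 0.343). GH_D02G0526, a xyloglucan xylosyltransferase-like gene, was at most 0.127 FPKM in any library. GH_D02G0527, a hypothetical protein too low to be tested, was at 0.190, 0.774 and 0.650 FPKM in transgenic leaf, against 0, 0.113 and 0 FPKM in wild-type leaf. It was the only one of these 6 neighbours whose groups did not overlap, and it was higher in transgenic leaf. Of all detected genes too low to be tested, 7.77% were higher in transgenic leaf without overlap. Among all detected genes, 25.5% did not overlap in either direction. The FPKM do not separate transcript of a transgene from that of the resident gene.

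Beside the 7 members there were 42 genes within 3 identifiers, of which 26 were tested. None was called by limma, where 5.70% of all tested genes were, and so few genes leave that share and 0 hard to tell apart. Their log2 fold changes were -0.66 to 0.47, the lowest adjusted p was 0.0874, and 1 had an unadjusted p under 0.05. The levels of the 42 genes ranged widely, and 8 of them were at 0 in all libraries. All 6 neighbours of GH_A01G0279 were tested, with wild-type means of 1.12 to 17.8 FPKM. The neighbours of GH_D07G1069 ranged between 2 genes at 0 throughout and the gene for the CAX-interacting protein 4, with a mean of 76.0 FPKM in transgenic leaf and 83.0 FPKM in wild-type leaf.

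**Figure D3:**
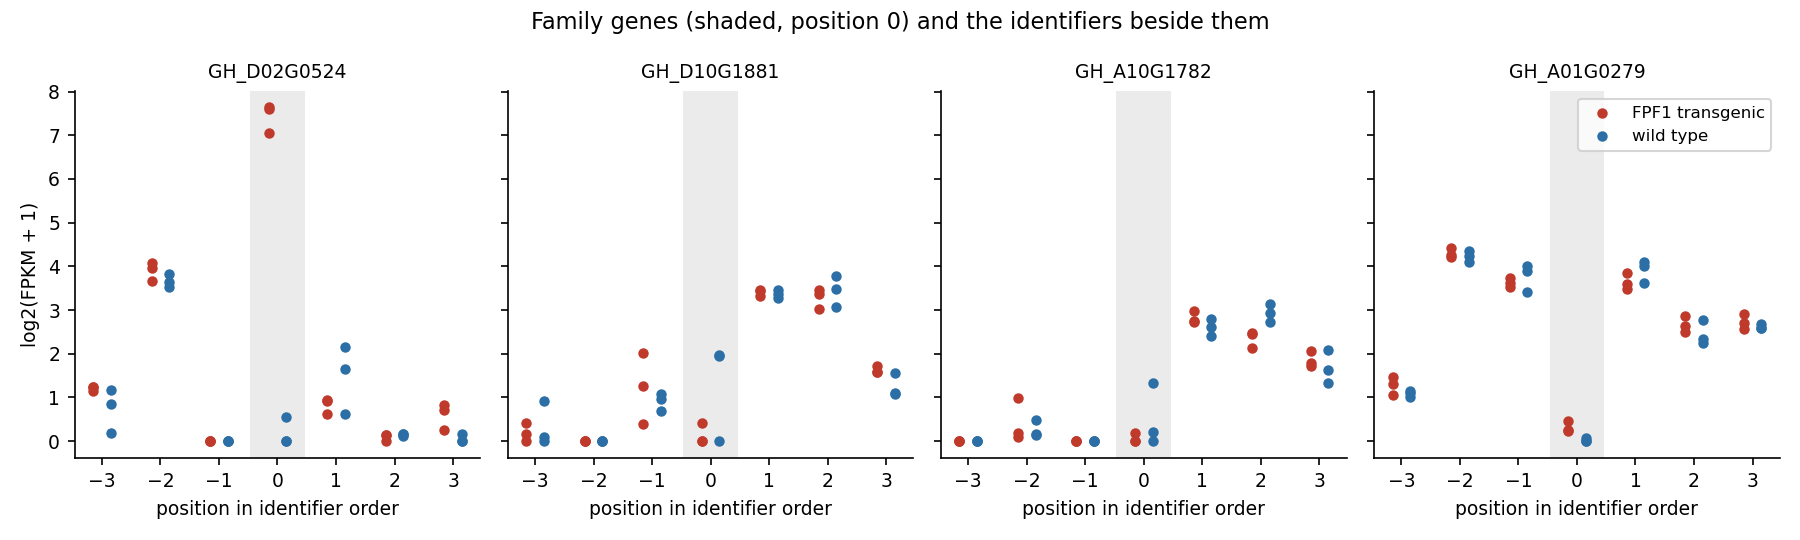
Level as log2(FPKM + 1) of 4 family genes (position 0, shaded) and of the 3 identifiers on either side, with 1 point per library, red for FPF1 transgenic and blue for wild type. The transgenic points of GH_D02G0524 stand above 7, and among its neighbours the groups are apart only at position 3, where all values are under 1.

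In 3 of the 7 members a gene for an NF-YB subunit, a partner of NF-YA in the NF-Y trimer, lay within 3 identifiers. GH_A10G1780, NF-YB-5-like, lies 2 identifiers before GH_A10G1782. GH_A09G2607, NF-YB-5-like, and GH_D09G2534, NF-YB-4-like, each lie 3 identifiers after their FPF1-like gene. The whole table has 36 NF-YB rows, and how often one lies as near to other genes was not counted. The A09 and D09 genes form a pair, so these 3 NF-YB neighbours are not separate cases. All 3 were low, at most 0.986 FPKM in any library, and GH_D09G2534 was at 0 throughout.

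The deposited annotation sorts the family into sets. The authors' deposited table gives the terms response to gibberellin and positive regulation of flower development to 3 family genes, GH_D02G0524, GH_A09G2604 and GH_D09G2531. It gives response to auxin, regulation of root development and mitotic spindle to 4, namely GH_D10G1881, GH_A10G1782, GH_A01G0279 and GH_D01G0265. The first set thus holds the gene at 133 FPKM or more in transgenic leaf beside 2 genes at or below 1.60 FPKM in every library. The 4 genes of chromosomes 5 and 6, at 0 throughout, carry translation elongation factor activity. The same table puts 11 of the 12 genes in the mRNA surveillance pathway of KEGG, under 1 entry that 15 rows share. The other 4 rows of that entry are HBS1-like genes, for a GTP-binding factor of ribosome rescue, and an HBS1-like gene lies within 3 identifiers of 3 family genes (GH_A05G0665, GH_A06G1306 and GH_D06G1188).

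Few transcripts had a profile near that of GH_D02G0524. The likeness measure was the root mean square difference in log2(FPKM + 1) over the 6 libraries, among tested genes. The nearest gene was GH_A07G1555, neomenthol dehydrogenase-like, a reductase type of terpenoid metabolism, at a distance of 0.451. It stood at 242, 215 and 129 FPKM in transgenic leaf, against 0, 0.106 and 0.186 FPKM in wild-type leaf. Next came GH_A07G1556, its neighbour and an uncharacterized protein, at a distance of 0.519, with 119.5, 139.7 and 89.2 FPKM in transgenic leaf and 0, 0.163 and 0.268 FPKM in wild-type leaf. Within the transgenic libraries these A07 genes were lowest in transgenic 3, whereas GH_D02G0524 was lowest in transgenic 1.

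The following 3 genes lay far further off. They were GH_A13G2238 (a hypothetical protein, distance 1.67), GH_D01G0655 (a SecA protein translocase subunit, 1.69) and GH_A10G2417 (the nucleic acid binding protein KIN17, 1.70). Their transgenic means were 34.3, 58.5 and 37.2 FPKM, against wild-type means of 0.0171, 2.90 and 1.14 FPKM. All 5 were chosen for their likeness, so their high transgenic levels are a description and carry no test. In all, 16 tested genes had a mean over 10 FPKM in transgenic leaf and under 0.5 FPKM in the wild type, and GH_D02G0524 ranked 2 among them by transgenic mean. In the opposite direction there were 8 such genes.

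The 5 tested genes nearest to GH_D10G1881 had their highest levels in wild type 1 and 2, and 4 of them were also above 0 at a low level elsewhere. The nearest was GH_D06G0992, oleosin 1-like, a coat protein of seed oil bodies, at a distance of 0.196. It stood at 0, 0 and 0.131 FPKM in transgenic leaf, against 1.96, 3.05 and 0.124 FPKM in wild-type leaf. GH_D12G0855, a homolog of the transcription elongation protein LEO1, stood at 0 in all 3 transgenic libraries, against 2.21, 2.72 and 0 FPKM in wild-type leaf. GH_D10G1954, a Bet v 1-like allergen of the PR-10 type, GH_D02G2424, a hypothetical protein, and GH_D04G0493, a vacuolar amino acid transporter, followed at distances of 0.260 to 0.296. They were chosen for this profile, so it is given as a description.

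The pattern was more frequent with wild type 3 at 0 than with another wild-type library at 0. A total of 35 tested genes were at 0 in wild type 3 and had their highest levels in wild type 1 and 2, at 1 FPKM or more. The same pattern with the 0 in wild type 2 was found in 4 genes, and with the 0 in wild type 1 in 3 genes. Wild type 2 and 3 were also the least alike of all pairs of libraries within a group (r = 0.932 across genes, which are not independent replicates). What part this had in the levels of GH_D10G1881 was not tested.

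**Figure D4:**
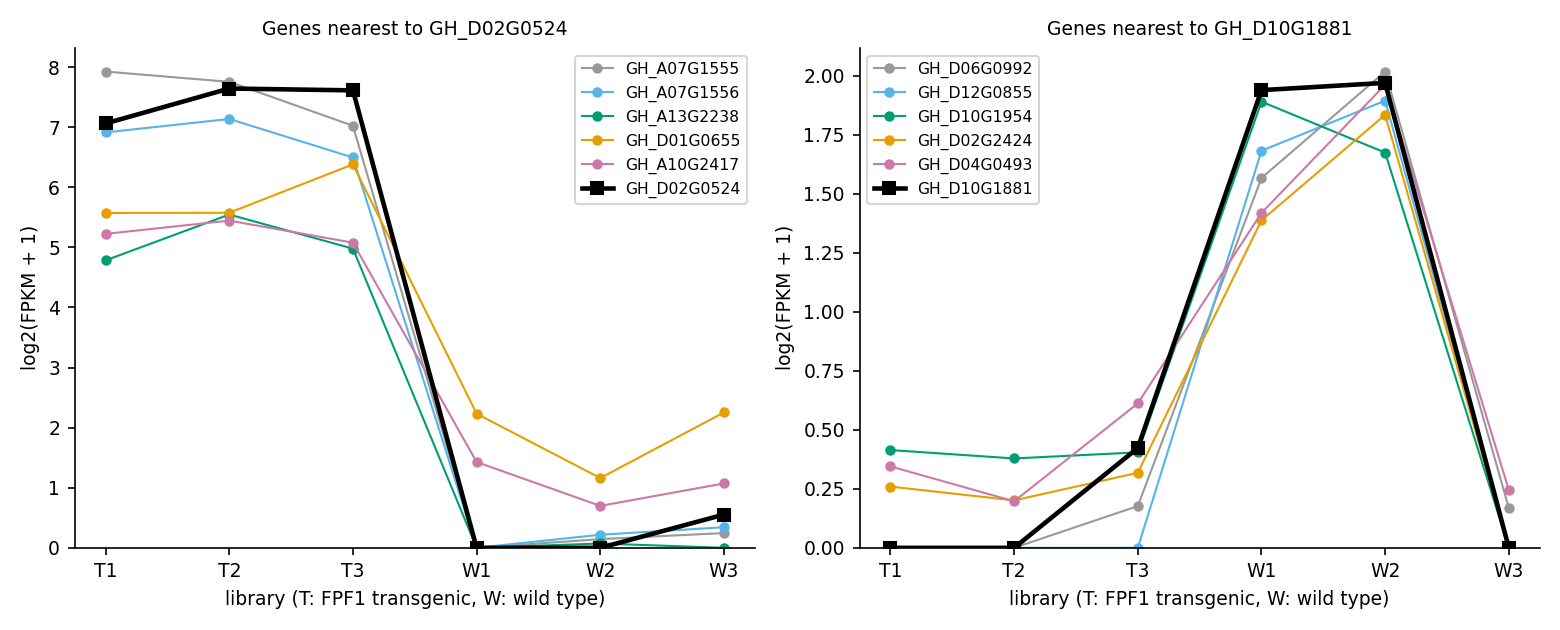
Levels as log2(FPKM + 1) in FPF1 transgenic (T1 to T3) and wild-type (W1 to W3) libraries of the 5 tested genes nearest to GH_D02G0524 (left) and to GH_D10G1881 (right), each in a colour and the family gene in black. Lines only join the points of 1 gene. On the left the transgenic points are high, with GH_A07G1555 and GH_A07G1556 closest. On the right only wild type 1 and 2 rise above 1.

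Each of 7 lists of related genes had 1 to 3 called members. Over all tested genes 5.70% were called, 3.92% as higher and 1.78% as lower, and the median log2 fold change was 0.0796. The lists' shares were not tested against these. The oxidases that make or inactivate gibberellin had 2 of 22 tested members higher and 0 lower, with a median of 0.37. The higher ones were GH_A12G0596, gibberellin 20-oxidase 1 (log2 2.08), and GH_D08G2039, gibberellin 3-hydroxylase 1 (1.53), both of the synthesis branch. Gibberellin receptors, GID2 and DELLA repressors had 0 of 21 higher and 1 lower, the receptor gene GH_A08G2403, GID1C-like (-0.72), with a median of 0.17. Gibberellin-regulated proteins had 2 of 11 higher and 0 lower, both 4-like (GH_D09G0170, log2 1.23, and GH_A09G0176, 2.40), with a median of 0.40. Without FPF1 transgenic 2 none of these 5 was called (limma adjusted p 0.0525 to 0.103 for the 4 rises). Without wild type 1 only the 20-oxidase was, and the GID1C-like call ended with each library left out (adjusted p up to 0.123). A wild-type mean of 1 FPKM was reached by 19 of the 22 oxidases and 19 of the 21 receptor, GID2 and DELLA genes. For gibberellin-regulated proteins it was 10 of 11. The others were tested only through transgenic leaf, where they were higher, which tends to raise the medians. Members tested only through wild-type leaf, which would lower the medians, were not counted, so the net effect is unknown. Among called genes of the 7 lists the lowest wild-type mean was 3.74 FPKM.

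Genes that control the switch to flowering had 2 of 23 tested members higher and 1 lower, with a median of 0.23. Of the 23, 22 reached a mean of 1 FPKM in wild-type leaf. GH_A11G0861, like the floral integrator SOC1, stood at 48.9, 49.5 and 62.5 FPKM in transgenic leaf, against 24.0, 26.7 and 29.9 FPKM in wild-type leaf (log2 0.97, standard error 0.135, adjusted p = 0.0125, limma). The other 3 SOC1-like genes tested were not called. The fall was GH_A04G1749, a CAULIFLOWER A-like MADS-box gene, at 0.958, 0.815 and 0.857 FPKM in transgenic leaf and 9.80, 2.52 and 6.56 FPKM in wild-type leaf (log2 -1.81, adjusted p = 0.0412). The second rise, GH_D12G1558 (log2 1.82, adjusted p = 0.0417), is an ULTRAPETALA 1-like gene that the word search took in unintended. Without FPF1 transgenic 2 or without wild type 1 no gene of the list was called, with adjusted p up to 0.0634 for SOC1-like, 0.149 for CAULIFLOWER A-like and 0.160 for ULTRAPETALA 1-like. The CAULIFLOWER A-like call was held only when wild type 2 was the library left out, where the list had 2 rises and 4 falls. The ULTRAPETALA 1-like call also ended without FPF1 transgenic 1 and without wild type 3.

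Transcripts of the mobile flowering signal were hardly seen. HEADING DATE 3A, the rice name for the FT type of florigen, is the description of GH_A08G2605, at 0 in all libraries, and of GH_D08G2598. The second was at 0 in all transgenic libraries, against 0.0800, 0.0939 and 0 FPKM in wild-type leaf. Both floricaula/LEAFY homologs, which give floral meristem identity, were present and not called (log2 0.25 and -0.10, adjusted p 0.380 and 0.751).

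NF-YA genes, the family of the partner protein, had 1 of 25 tested members higher and 0 lower, GH_D01G1407, NF-YA-9-like (log2 1.06, adjusted p = 0.0125, limma), with a median of -0.01. NF-YB and NF-YC genes had 2 of 28 higher and 0 lower, the NF-YC-2-like genes GH_D11G3340 (log2 0.74) and GH_A01G0969 (0.61), with a median of 0.12. HD-ZIP class II factors, which respond to shade in Arabidopsis, had 2 of 25 higher and 0 lower, GH_A12G1123 (HAT3-like, log2 1.23) and GH_A08G1926 (HAT4-like, 0.67), with a median of 0.42. None of these 5 was called without FPF1 transgenic 2 (adjusted p 0.0698 to 0.136 at the highest over the libraries left out), and 5 HD-ZIP class II genes were without wild type 3. The HAT4-like gene was not called after either scaling of the libraries. A wild-type mean of 1 FPKM was reached by all 25 NF-YA genes tested, 27 of 28 NF-YB and NF-YC genes and 23 of 25 HD-ZIP class II genes. The log2 fold change of GH_D02G0524 was above that of every called gene of these 7 lists.

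**Figure D5:**
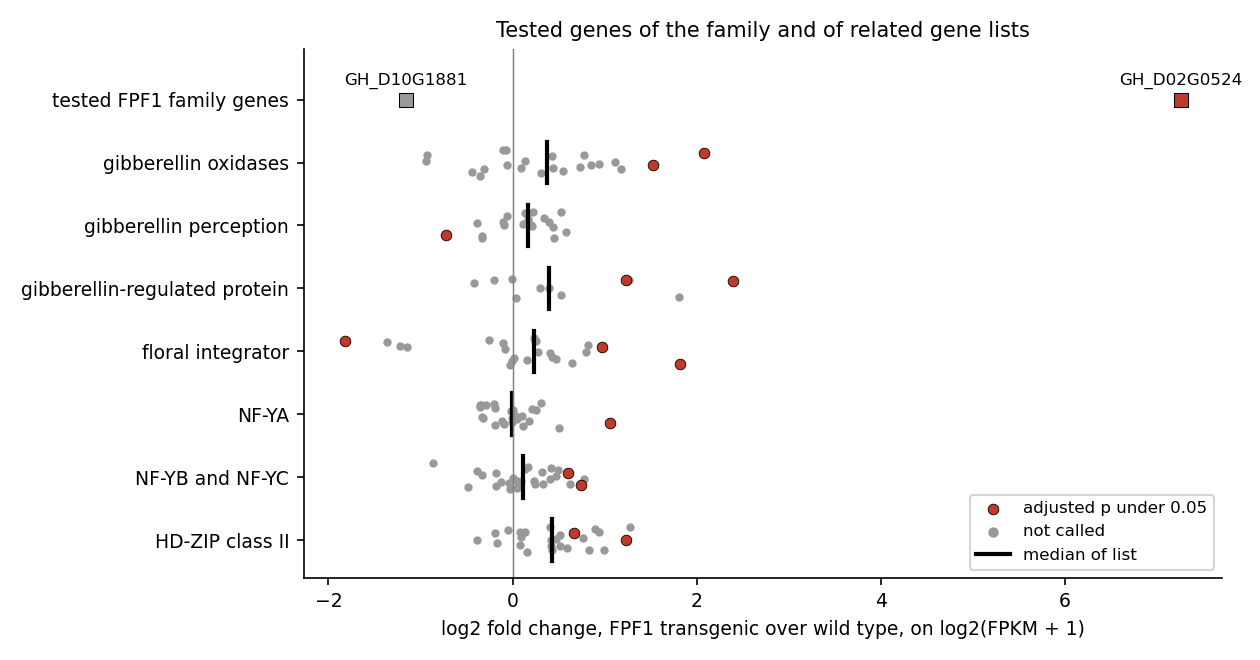
Log2 fold change of FPF1 transgenic over wild-type leaf (horizontal, on log2(FPKM + 1)) of the 2 tested FPF1 family genes and of the tested genes of 7 related lists, red where the limma adjusted p was under 0.05, with a bar at each list's median. GH_D02G0524 stands at 7.25, and the called list members lie between -1.81 and 2.40.

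Leaf markers were strong in both groups, and 1.78% of all tested genes were called lower. RuBisCO small subunit, RuBisCO activase and chlorophyll a-b binding genes summed to 2585 to 3282 FPKM in transgenic leaf and 4042 to 5569 FPKM in wild-type leaf, with 3 of 53 tested genes higher and 23 lower and a median log2 fold change of -0.84. Of the 61 such genes, 53 to 55 were above 0 in each transgenic library and 55 to 57 in each wild-type library. Genes matched by name as shoot meristem markers summed to 765 to 782 FPKM in transgenic leaf and 515 to 688 FPKM in wild-type leaf. Of them, 3 of 39 tested were higher, where 3.92% of all genes were, and 0 lower, with a median of 0.23. A wild-type mean of 1 FPKM was reached by 35 of the 39. The search took in every gene described as knotted-1-like, and 44 to 46 of the 48 matched genes were above 0 in each library. Whether they mark meristem cells in these leaves was not tested. The 6 floral organ markers of the SEPALLATA type summed to 1.71 to 2.69 FPKM in transgenic leaf and 6.24 to 37.0 FPKM in wild-type leaf. Wild type 2 had the sum of 6.24 FPKM, against 37.0 and 27.2 FPKM in wild type 1 and 3. Of these markers, 2 of 6 were lower and 0 higher, with a median of -1.86. The mean of 1 FPKM was reached in wild-type leaf by 5 of the 6. The filter thus leans to genes high there, and the direction is given as a description. In transgenic leaf 2 to 5 of the 6 were above 0, against 5 to 6 in wild-type leaf. Dividing cell markers summed to 112 to 131 FPKM in transgenic leaf and 140 to 143 FPKM in wild-type leaf, with 0 of 6 called and a median of -0.04. The markers' shares were not tested against those of all genes. The part of these differences in the levels of the family genes was not tested.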

How the data were processed

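Poly-A selected leaf RNA was sequenced, per the labels' protocols, which name a pair of library kits. The authors deposited FPKM for 72761 genes, per the file headers, with 1e-04 where nothing was estimated (read here as 0). The deposited fold is the ratio of group means, given also as log2, and no test is named for the p-value and q-value that the authors deposited. Aligner, counting program, genome build, strand use and handling of shared reads are not given in the sources used here, so reads of homeologs and close paralogs may be split between identifiers. No counts, sequences or coordinates were used. Chromosomes and gene order were read from identifiers.

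The log2(FPKM + 1) values were compared with limma (version 3.58.1, R version 4.3.3) with trend and robust estimation. Tests were two-sided, with Benjamini-Hochberg adjustment over all genes that reached a group mean of 1 FPKM. The pseudocount of 1 understates folds of low genes. The fit was tested on simulated data with normal errors and with changes put only into well-expressed genes, so that test does not cover members near 0. Relative depth used values under 0.15 FPKM. Same-numbered libraries of the groups deviated together little (r 0.0136 to 0.0740), against r of -0.084 to 0.0582 for unlike-numbered ones. The libraries numbered 3 had the highest r, above every unlike-numbered pair. No pairing was used in the main fit, and a replicate block is among the alternatives.

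Named genes were the whole family, the 5 nearest profiles of each tested member, the neighbours of GH_D02G0524 and the called genes of each list. Lists were word searches in the descriptions. CLE peptides and calcyclin-binding proteins were dropped from the markers. Members and lists were chosen with earlier results of these data known. The limits of 0.5 and 10 FPKM, the search for profiles at 0 in 1 wild-type library, the A02 stretch and its called gene, and the genes named from annotation, NF-YB neighbours and small counts were chosen after values were seen. The 14 alternatives are given at the end.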

Additional observations from a re-analysis of the deposited data

How the results depend on the processing

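The alternatives were pseudocounts of 0.1 and 0.01, no filter, a filter on the mean of all libraries, median-of-ratios and upper quartile scaling, limma without trend and robust estimation, the replicate block, and each library left out. GH_D02G0524 was called higher in all 14 (log2 7.15 to 12.2, adjusted p at most 0.00943). Its transgenic level alone brought it past the main filter, so these calls are a description of size and spread. GH_D10G1881 was lower in all 14 (log2 -3.74 to -0.83) and called in 1, without wild type 3. Leaving out 1 library gave GH_D02G0524 a log2 fold change of 7.15 to 7.44 and GH_D10G1881 one of -1.81 to -0.83. It gave 1 to 2 members without overlap among the 5 untested ones, namely also GH_D09G2531 (higher) without FPF1 transgenic 1, and GH_A10G1782 (lower) without wild type 3. With all libraries, 11.2% of the detected genes under the filter did not overlap in either direction. Fewer libraries separate more readily, and the share with a library left out was not computed. Leaving out 1 library gave 289 to 2552 called genes, against 2500 with all libraries (289 without FPF1 transgenic 2, 803 without transgenic 3, 420 without wild type 1). Pseudocounts of 0.1 and 0.01 gave the 5 untested members other log2 differences. These were 1.58 and 3.80 (GH_A01G0279), -1.41 and -2.52 (GH_A10G1782), and 0.42 and 0.57 (GH_D07G1069). They were -0.17 and -0.22 for GH_A09G2604. GH_D09G2531 changed sign, with 0.14 and -0.71.

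Called list members over the libraries left out numbered 0 to 4 (gibberellin oxidases), 0 to 2 (perception), 0 to 3 (gibberellin-regulated proteins), 0 to 6 (floral), 0 to 1 (NF-YA), 0 to 2 (NF-YB and NF-YC) and 0 to 5 (HD-ZIP class II). Directions changed too. Without wild type 2 perception had 2 higher and 0 lower. The oxidases had 2 higher and 2 lower without FPF1 transgenic 1, and 3 higher and 1 lower without wild type 3. No filter left 0 calls in perception, 1 in floral, 1 in NF-YB and NF-YC and 0 in HD-ZIP class II. Limma without trend and robust estimation left 0 in perception and 1 in NF-YB and NF-YC. HD-ZIP class II had 1 after either scaling. The replicate block gave 1532 called genes, with 0 in perception, 1 in NF-YB and NF-YC and 1 in HD-ZIP class II. It changed the call of no family gene. Without ULTRAPETALA 1, an alternative chosen after seeing the data, the floral list had 1 rise and 1 fall. The cause of these changes was not tested. Rises were 1720 of 2500 calls as deposited, 1269 of 2250 after median-of-ratios and 1295 of 2262 after upper quartile scaling. Unknown read numbers limit what the members near 0 can show.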
